A study of Mus musculus with 12 samples.

Results

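Bulge hair follicle stem cells labelled as knockout for the type II TGF-beta receptor (TßRII-cKO) were compared with TßRII-Het bulge cells. The comparison used 4 of the 12 Affymetrix arrays of the series, 2 per genotype. The arrays were chosen by their labels, as bulge cells of either genotype from set 1 or set 2. The cKO array of set 1 held cells called quiescent and that of set 2 cells called aberrantly quiescent. The Het array of set 1 held cells called quiescent and that of set 2 cells called activated. All 4 arrays came from back skin of female mice on a mixed C57BL/6 and CD1 background, 72 to 74 days old, with cells sorted by the Rosa26-YFP reporter, P-cadherin and CD34. The line that deletes the receptor, the alleles behind the name Het, and how many mice gave 1 array are not stated in the labels. The other 8 arrays held hair germ (HG) cells and total keratinocytes of the same genotypes and sets, and the study asked how TGF-beta signalling bears on stem cell activation at the second telogen-to-anagen transition.

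The bulge is the permanent part of the resting hair follicle and holds slow-cycling stem cells, below which lies the hair germ, the cells that divide first when a new growth phase starts. TGF-beta ligands bind the type II receptor, which recruits and activates a type I receptor, and this phosphorylates Smad2 and Smad3. BMP signals, read out by the Id genes, hold bulge cells at rest, and TGF-beta has been placed against them in hair germ activation.

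Values are log2 of MAS5 signal, the Affymetrix summary of a probe set. Signals below 20.7 were set to that floor (4.37 on the log2 scale), and differences are cKO minus Het, in log2. The median signal was 108.7 and 96.9 on the cKO arrays, against 82.7 and 79.6 on the Het arrays (sets 1 and 2 in each). Pearson correlations over the 11939 genes tested were 0.9518 between the cKO arrays, 0.9466 between the Het arrays, 0.9580 between genotypes in set 1 and 0.9346 in set 2. The Het array of set 2 was thus the least like the cKO arrays, with 0.9245 against the cKO array of set 1. The 18S ribosomal RNA control probe sets averaged 12.41 and 12.70 on the cKO arrays, against 13.82 and 14.90 on the Het arrays. The ratio of 3' to 5' signal was 7.95 and 5.28 for beta-actin on the cKO arrays, against 7.94 and 6.10 on the Het arrays. The other arrays of the series gave 2.76 to 6.42, so both bulge arrays of set 1 lay above that range. For Gapdh the ratio was 2.66 and 1.49 in cKO, against 2.14 and 2.05 in Het, and 1.08 to 2.07 on the other arrays.

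The sort marker Cd34, a cell surface protein of the bulge, had log2 signals of 14.42 and 14.50 on the cKO arrays, against 14.60 and 14.79 on the Het arrays. HG arrays gave Cd34 values of 7.65 to 8.69 and total keratinocytes 10.03 to 11.30, so all 4 arrays fitted their bulge label. P-cadherin (Cdh3), which is higher in hair germ, gave 8.31 and 8.02 on the cKO arrays, against 8.60 and 9.10 on the Het arrays. Markers of other cells were also present on all 4 arrays. Over 14 fibroblast markers the mean log2 signal was 13.21 and 12.28 in cKO, against 12.45 and 12.12 in Het. Haemoglobin (Hba-a1) was at the floor on all 4 arrays. Of the skeletal muscle genes, Acta1 lay between 4.87 and 5.70, while Mylpf lay between 7.78 and 7.83. Ptprc, which marks leukocytes, gave 9.66 and 8.20 in cKO, against 9.79 and 8.51 in Het.

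The targeted gene Tgfbr2 gave 12.14 and 11.89 on the cKO arrays, against 12.39 and 11.92 on the Het arrays with its brightest probe set. The difference of -0.13 (SE 0.25) did not pass the test (limma, adjusted p = 0.886), and the groups overlapped. The other probe sets of the gene lay at or near the floor on all 4 arrays. The labels do not say whether these probes lie inside the deletion, so the values cannot check the genotypes.

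The comparison between genotypes, with set as a block, called 64 of 11939 genes at an adjusted p under 0.05 (0.536% of those tested). In cKO bulge cells 42 genes rose (0.352%) and 22 fell (0.184%), of which Sfi1, Epn3 and Rrp9 met the filter on low signals through 1 genotype only. The genes that rose included nuclear long noncoding RNAs such as Neat1 and Meg3, zinc finger protein genes, and the transcription factor gene Zbtb16. Those that fell included the immediate early genes Egr1, Jun and Ier3, the cyclin gene Ccnd1, and the cytokine receptor gene Tnfrsf12a. No gene was called without the set block (1020 genes at an unadjusted p under 0.05, against 1395 with the block), and none in a fit of all 12 arrays (1186 genes). The p-values rest on the spread of 4 arrays, not of mice, with 1 residual degree of freedom under the block and 18.7 from the prior. Both cKO arrays lay above both Het arrays for 18.6% of all genes tested and below them for 22%, so groups that do not overlap were common.

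**Figure D1:**
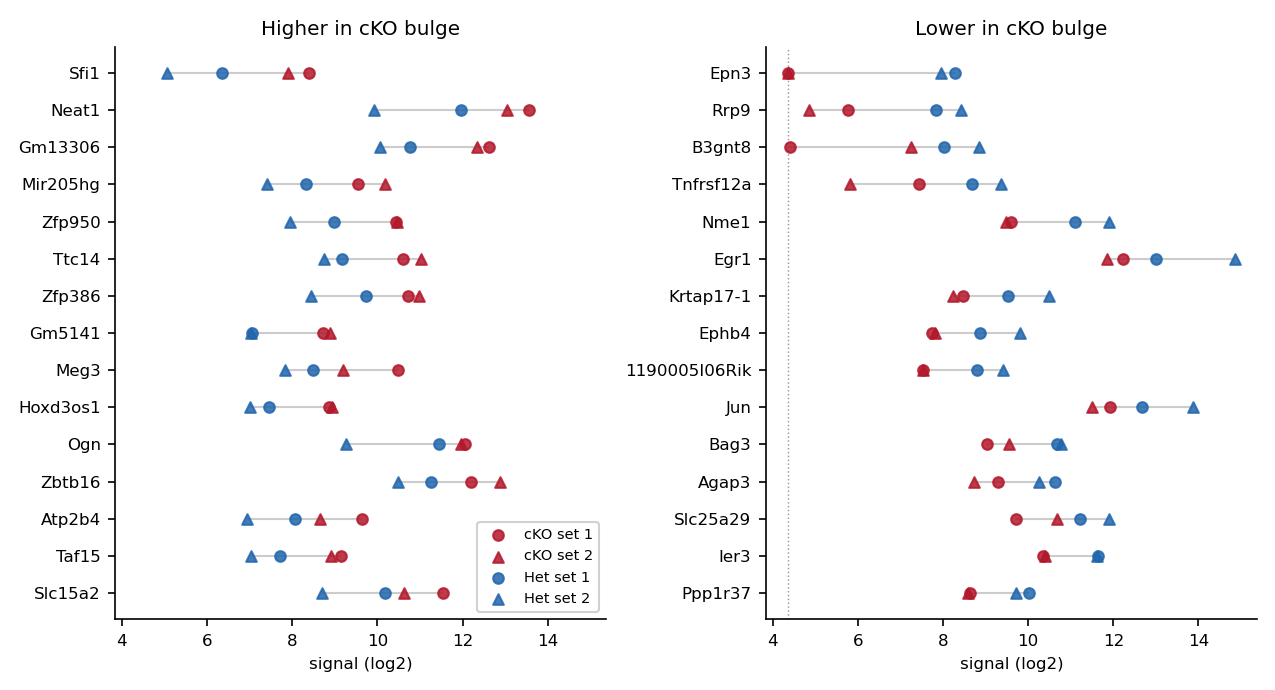
Log2 signal on the 4 bulge arrays of the 15 genes with the largest rise (left panel) and the 15 with the largest fall (right panel) in cKO. Red symbols are cKO arrays and blue symbols Het arrays, circles are set 1 and triangles set 2, and the dotted line is the floor of 4.37; the groups are apart for all 30 genes, and the Het array of set 2 is often the farthest point, as for Neat1 (9.92) and Egr1 (14.85).

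Neat1, the RNA scaffold of nuclear paraspeckles, had log2 signals of 13.55 and 13.04 in cKO, against 11.97 and 9.92 in Het. It was 5.09-fold higher in cKO (log2 difference 2.35, SE 0.31, limma adjusted p = 0.00143). The Het array of set 2 was the lowest, and the difference was 1.58 in set 1 and 3.12 in set 2. A second, much dimmer probe set gave 6.88 and 6.39 in cKO, against 6.40 and 6.10 in Het (0.38). With the probe sets averaged the difference was 1.37 (adjusted p = 0.164), and without the Het array of set 2 it was 1.33.

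Sfi1, which encodes a centrin-binding protein of the centrosome, gave 8.40 and 7.91 in cKO, against 6.36 and 5.05 in Het. Only the cKO arrays exceeded the pooled median of 6.40 that the filter required, so Sfi1 was tested because it was high in cKO, and its difference of 2.45 is given as a description. Mir205hg, the host transcript of the epithelial microRNA miR-205, gave 9.55 and 10.17 in cKO, against 8.32 and 7.40 in Het (difference 2.01, adjusted p = 0.0139). Meg3, a noncoding RNA expressed from the maternal chromosome, gave 10.49 and 9.19 in cKO, against 8.5 and 7.84 in Het (difference 1.67, adjusted p = 0.0154, and 1.02 without the cKO array of set 1). For 33 of the 42 genes that rose the difference was larger in set 2, but for Meg3 it was larger in set 1, and 1 of its 4 other probe sets that could be compared lay lower in cKO. Hoxd3os1, transcribed opposite Hoxd3, gave 8.86 and 8.93 in cKO, against 7.46 and 7 in Het (difference 1.66, adjusted p = 0.0442).

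Among genes for nuclear and regulatory proteins, Zbtb16, a zinc finger transcription factor also known as PLZF, gave 12.20 and 12.89 in cKO, against 11.26 and 10.49 in Het (difference 1.66, SE 0.30, limma adjusted p = 0.0154). Both of its other probe sets were higher in cKO in both sets. The zinc finger protein gene Zfp950 gave 10.43 and 10.46 in cKO, against 8.99 and 7.94 in Het (difference 1.98, adjusted p = 0.00461). Zfp386 gave 10.72 and 10.98 in cKO, against 9.73 and 8.43 in Het (difference 1.77, adjusted p = 0.0154, and 1.11 without the Het array of set 2). For each of these 3 genes the Het array of set 2 was the lowest of the 4. Taf15, an RNA-binding protein gene, gave 9.15 and 8.91 in cKO, against 7.71 and 7.04 in Het (difference 1.65, adjusted p = 0.0361). Ttc14 gave 10.59 and 11.02 in cKO, against 9.18 and 8.74 in Het (difference 1.85, adjusted p = 0.00461), and 6 of its 7 other probe sets that could be compared were higher in cKO in both sets.

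Transport and matrix genes were also among the named genes that rose. Slc15a2, a peptide transporter, gave 11.53 and 10.62 in cKO, against 10.18 and 8.69 in Het (difference 1.64, limma adjusted p = 0.00859). Atp2b4, a calcium pump of the plasma membrane, gave 9.63 and 8.66 in cKO, against 8.06 and 6.94 in Het (difference 1.65, adjusted p = 0.0298). Without the Het array of set 2 the differences of Slc15a2 and Atp2b4 were 0.90 and 1.09. Ogn encodes osteoglycin, a small proteoglycan of connective tissue, and gave 12.05 and 11.97 in cKO, against 11.44 and 9.27 in Het (difference 1.66, adjusted p = 0.0336). The Ogn difference was 0.61 in set 1 and 2.70 in set 2. It was 0.57 without the Het array of set 2 and 2.74 without the other Het array. The fibroblast markers had a median difference of 0.47 over 14 genes (0.73 in set 1 and 0.15 in set 2), with none called. Of these markers 13 had a positive difference, against 5740 of 11939 over all genes, and 6 lay lower in cKO in set 2. The part of the fibroblast markers in the Ogn result was not tested. In bulk samples fewer cells of a type and less RNA per cell cannot be told apart.

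The predicted gene Gm13306 gave 12.63 and 12.35 in cKO, against 10.76 and 10.07 in Het, with the smallest adjusted p of all (limma, 0.001). Gm5141, also a predicted gene, gave 8.72 and 8.88 in cKO, against 7.06 and 7.04 in Het (difference 1.75, adjusted p = 0.0397). Its probe set is of the x type, whose probes can match other transcripts, so this value is uncertain as to gene. The other 27 genes that rose had differences down to 1.20. They included Kcnq1ot1 (1.63), an imprinted noncoding RNA, and Tet2 (1.54), an enzyme that oxidises methylated cytosine. They also included Prpf4b (1.52), a kinase of the splicing machinery, and the mitochondrial gene ND5 (1.47). These 4 fall outside the naming rule and were chosen after their values were seen.

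The mean signal of the 42 genes that rose was higher on the arrays of low 18S signal than on the other arrays of the series. In bulge the direction of these genes follows from how they were called. In bulge the cKO array had the lower 18S signal in both sets (by -1.41 in set 1 and -2.20 in set 2), and the median difference of the 42 genes was 1.37 and 1.72. In HG cells 18S differed by 0.56 in set 1, where the median of the same genes was 0.11, and by -1.65 in set 2, where it was 1.51. In total keratinocytes 18S differed by 0 and 0.14, and the medians were -0.21 and -0.07. The 5 arrays of the series with 18S signals of 11.85 to 12.79 had mean signals of the 42 genes between 10.29 and 10.65, and the 7 arrays with 18S signals of 13.81 to 14.90 had means between 8.62 and 9.70. The arrays of low 18S signal were the cKO bulge and cKO HG arrays of both sets and the Het HG array of set 1. In bulge and HG, low 18S and the cKO genotype thus largely went together. The part of the 18S signal in these calls was not tested. For the 22 genes that fell, the medians were -1.21 and -1.58 in bulge, 0.35 and -0.31 in HG, and 0.03 and 0.14 in total keratinocytes.

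**Figure D2:**
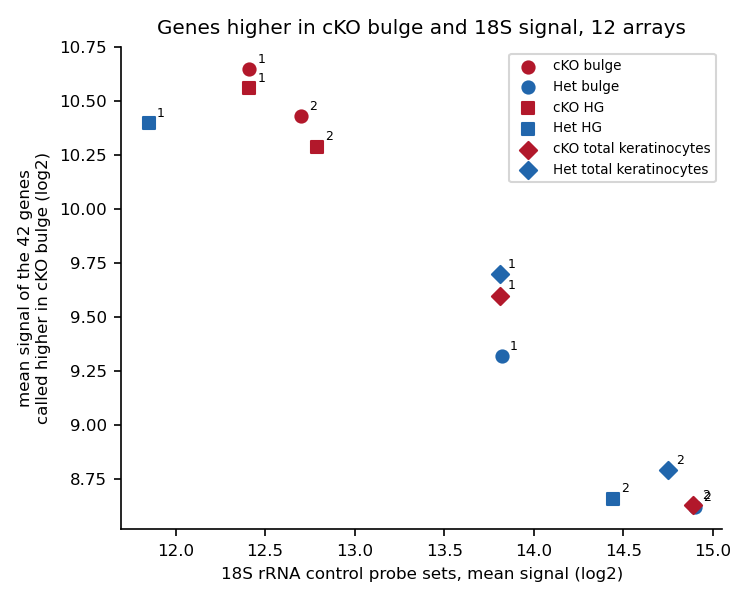
Mean log2 signal of the 42 genes called higher in cKO bulge (vertical axis) against the mean log2 signal of the 18S control probe sets (horizontal axis), with 1 point for each of the 12 arrays. Colour gives the genotype (red cKO, blue Het), shape the fraction and the number the set. The cKO bulge arrays (10.65 and 10.43) sit at low 18S with the cKO HG arrays (10.56 and 10.29) and the Het HG array of set 1 (10.40). The Het bulge arrays (9.32 and 8.62) sit at high 18S with the Het HG array of set 2 (8.66) and the total keratinocytes.

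Among the genes that fell, Epn3, which encodes the endocytic adaptor epsin 3, was at the floor on both cKO arrays, against 8.29 and 7.95 on the Het arrays. It was at least 13.4-fold lower in cKO. Rrp9, a protein of the U3 particle that processes ribosomal RNA, gave 5.78 and 4.86 in cKO, against 7.84 and 8.42 in Het (difference -2.81). Epn3 and Rrp9 met the filter through the Het arrays alone, where they are high, so both differences are descriptions. B3gnt8, a glycosyltransferase gene, gave 4.40 and 7.26 in cKO, against 8.03 and 8.85 in Het (difference -2.61, limma adjusted p = 0.0361). The difference of B3gnt8 was -1.18 with the cKO array of set 1 left out and -4.04 with the other cKO array left out.

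Tnfrsf12a, the receptor for the cytokine TWEAK, gave 7.45 and 5.82 in cKO, against 8.69 and 9.37 in Het (difference -2.40, SE 0.47, limma adjusted p = 0.0231, and -1.58 without the cKO array of set 2). Nme1, a nucleoside diphosphate kinase, gave 9.59 and 9.47 in cKO, against 11.10 and 11.91 in Het (difference -1.98, SE 0.27, adjusted p = 0.00209). This probe set is of the x type. The other Nme1 probe set gave 9.85 and 10 in cKO, against 10.22 and 10.85 in Het, a smaller difference of -0.61. Ephb4, a receptor for the ephrin-B2 ligand, gave 7.74 and 7.81 in cKO, against 8.87 and 9.81 in Het (difference -1.57, adjusted p = 0.0361). Krtap17-1, a keratin-associated protein of the hair shaft, gave 8.48 and 8.23 in cKO, against 9.53 and 10.48 in Het (difference -1.65, adjusted p = 0.0186). Both genes were highest on the Het array of set 2.

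Bag3, a partner of the Hsp70 chaperone, fell by a similar amount in both sets, with 9.04 and 9.54 in cKO, against 10.68 and 10.77 in Het (difference -1.44, limma adjusted p = 0.0163). Agap3, a GTPase-activating protein gene, gave 9.30 and 8.74 in cKO, against 10.64 and 10.26 in Het (difference -1.43, adjusted p = 0.0163). Slc25a29, a mitochondrial carrier of basic amino acids, gave 9.72 and 10.69 in cKO, against 11.23 and 11.90 in Het (difference -1.36, adjusted p = 0.0163, and -0.88 without the cKO array of set 1). The 4 other probe sets of Slc25a29 were lower in cKO in both sets as well. Ppp1r37, a regulatory subunit of protein phosphatase 1, and 1190005I06Rik, a gene known by its clone name, differed by -1.25 and -1.56. Ccnd1, the gene of cyclin D1, which drives entry into the cell cycle, gave 10.82 and 10.60 in cKO, against 11.61 and 12.17 in Het (difference -1.18, SE 0.26, adjusted p = 0.0483). Both of its other probe sets were lower in cKO in both sets.

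Immediate early genes are switched on within minutes by growth factors or by stress such as cell isolation. Of 21 listed, which include the heat shock genes Hspa1a, Hspa1b and Dnajb1, 20 were tested and 3 were called, all lower in cKO (Egr1, Jun and Ier3), against 0.184% of all genes. Both cKO arrays lay below both Het arrays for 11 of the 20, against 22% of all genes, and above for none. The median difference was -0.81, against -0.02 over all genes tested. It was -0.17 in set 1 and -1.59 in set 2. Without the Het array of set 2 the median of the list was -0.26, and without the Het array of set 1 it was -1.45.

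Egr1, a zinc finger transcription factor gene, gave 12.23 and 11.86 in cKO, against 13.01 and 14.85 in Het (difference -1.89, SE 0.36, limma adjusted p = 0.0231). Jun, the core gene of the AP-1 factor, gave 11.93 and 11.50 in cKO, against 12.67 and 13.87 in Het (difference -1.55, SE 0.32, adjusted p = 0.0317). Without the Het array of set 2 the differences of Egr1 and Jun were -0.97 and -0.95. The second probe set of Jun differed less, with 12.13 and 11.90 in cKO, against 12.26 and 12.66 in Het. Ier3, an early gene linked to cell survival, gave 10.34 and 10.40 in cKO, against 11.64 and 11.61 in Het (difference -1.26, SE 0.25, adjusted p = 0.0239). Ier3 thus differed alike in both sets, by -1.30 and -1.21, while Egr1 and Jun differed mostly in set 2. Junb gave 9.02 and 8.44 in cKO, against 9.46 and 11.29 in Het, and its difference of -1.64 did not pass the test (adjusted p = 0.0597). Fos gave 13.93 and 13.35 in cKO, against 13.31 and 15.70 in Het. Its groups overlapped, with the cKO array higher in set 1 and lower in set 2, and the same held for Fosb and Nr4a1.

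**Figure D3:**
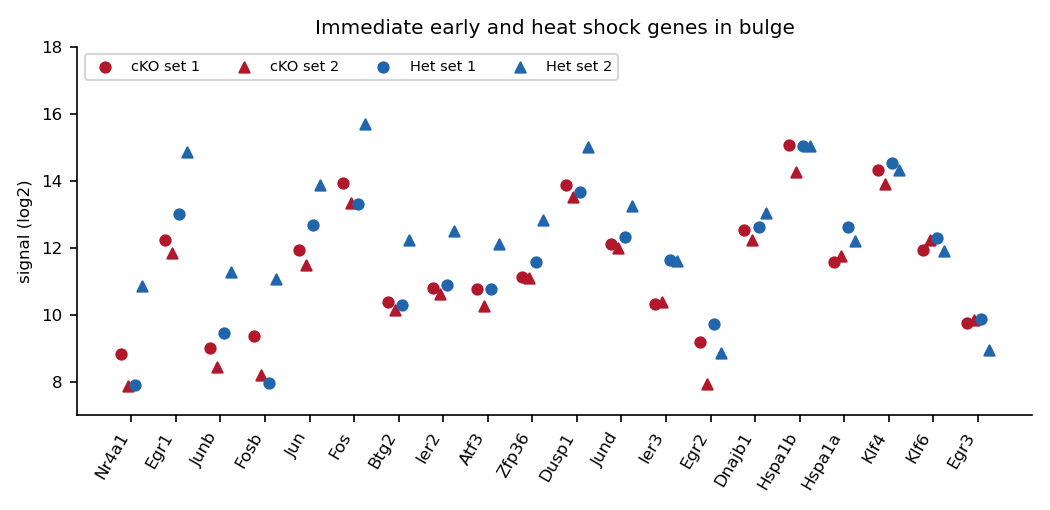
Log2 signal of the 20 immediate early and heat shock genes tested, on the cKO arrays (red) and the Het arrays (blue) of set 1 (circles) and set 2 (triangles), ordered by the difference in set 2. The Het array of set 2 is the highest of the 4 for most genes on the left, such as Egr1 (14.85) and Junb (11.29), and the other arrays lie closer together.

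Of the called early genes, the promoters of Jun and Ier3 are shown, and that of Egr1 was left out. Jun and Ier3 fell in cKO with differences spread unlike over the sets. The windows run from 250 bases before to 50 bases after the start site of the RefSeq annotation on GRCm38.p6, at chr4:95052173-95052472 on the minus strand for Jun and chr17:35821463-35821762 on the plus strand for Ier3. Capitals mark TGACNTCA, a form of the site bound by AP-1 and ATF factors, searched on both strands.
Jun: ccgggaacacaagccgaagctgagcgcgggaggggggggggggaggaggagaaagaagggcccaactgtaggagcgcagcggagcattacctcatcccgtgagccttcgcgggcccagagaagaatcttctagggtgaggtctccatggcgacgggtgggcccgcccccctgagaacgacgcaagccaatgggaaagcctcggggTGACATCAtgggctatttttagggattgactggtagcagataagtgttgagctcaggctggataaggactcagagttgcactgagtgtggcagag
Ier3: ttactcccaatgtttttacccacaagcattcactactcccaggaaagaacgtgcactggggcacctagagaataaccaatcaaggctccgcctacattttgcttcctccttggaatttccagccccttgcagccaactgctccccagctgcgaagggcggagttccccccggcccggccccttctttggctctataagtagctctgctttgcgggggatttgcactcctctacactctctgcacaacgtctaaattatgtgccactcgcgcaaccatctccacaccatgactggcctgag
The Jun window held TGACATCA once, beginning 45 bases before the start site, and the Ier3 window held none. Of 32851 promoter windows 8.83% held this motif. Of the 17 listed early genes with a window, 4 held it (Btg2, Dusp1, Jun and Klf6). The shorter AP-1 site TGANTCA, which no match of the longer motif contains, was in 7.81% of all windows and in none of the 17. The CArG box, bound by serum response factor, was in 1.63% of all windows and in 2 of the 17 (Egr2 and Zfp36). A match is a stretch of letters and no measured site.

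Of the TGF-beta receptors and Smads, 18 of 19 listed genes were tested, none was called, and the median difference was -0.08. With 0.536% of all genes called, the absence of calls in this list or those below is no result about its members. The largest differences were those of Tgfbr3, a co-receptor, with 12.13 and 11.78 in cKO, against 11.97 and 10.31 in Het (difference 0.82, limma adjusted p = 0.251), and of the activin receptor gene Acvr2b (0.71, adjusted p = 0.54). The inhibitory Smad genes lay lower in cKO on both arrays without passing the test. Smad7 gave 8.49 and 9 in cKO, against 9.32 and 9.40 in Het (difference -0.61, adjusted p = 0.422), and Smad6 gave 8.34 and 8.64, against 9.13 and 9.15 in Het (-0.65, adjusted p = 0.403). Smad2, Smad3 and Smad4, the signal carriers, differed by -0.10, -0.01 and -0.07.

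Of 11 ligands and latent binding proteins none was called, and the median difference was -0.39. Inhba, the gene of an activin subunit, gave 8.41 and 7.12 in cKO, against 6.59 and 5.51 in Het (difference 1.71, limma adjusted p = 0.188). Ltbp1, which stores latent TGF-beta in the matrix, gave 10.80 and 10.51 in cKO, against 11.44 and 11.51 in Het (difference -0.82, adjusted p = 0.173). Tgfb2 gave 8.48 and 8.02 in cKO, against 9.24 and 8.03 in Het, and the groups overlapped.

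TGF-beta response genes had a median difference of 0.03 over 22 genes, and none passed the test. Both cKO arrays lay below both Het arrays for 5 (22.7%, against 22% of all genes) and above for 3 (13.6%, against 18.6%). Ccn1, a matricellular protein gene, came nearest the threshold, with 11.99 and 11.66 in cKO, against 12.63 and 13.58 in Het (difference -1.28, limma adjusted p = 0.0572). Klf10, known as an early TGF-beta target, lay the other way, with 11.39 and 11.30 in cKO, against 10.32 and 10.56 in Het (difference 0.91, adjusted p = 0.128). Tmeff1, a transmembrane protein with follistatin-like domains, gave 7.63 and 7.44 in cKO, against 7.23 and 7.22 in Het (difference 0.31, adjusted p = 0.843).

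None of 12 BMP response genes tested was called, and the median difference was -0.12. Both cKO arrays lay below both Het arrays for 5 (41.7%, against 22% of all genes) and above for 1 (8.33%, against 18.6%). Id1 gave 12.49 and 12.65 in cKO, against 12.78 and 12.84 in Het, a difference of -0.24 (SE 0.26, limma adjusted p = 0.768). Id2 differed by -0.14 (SE 0.30, adjusted p = 0.896). Id3 gave 12.28 and 12.61 in cKO, against 12.54 and 13.16 in Het (-0.41, SE 0.26, adjusted p = 0.575). Of 12 BMP ligands, receptors and antagonists the largest difference was that of the antagonist gene Sostdc1, with 12.82 and 12.63 in cKO, against 13.30 and 13.88 in Het (-0.87, adjusted p = 0.202).

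None of 25 bulge stem cell genes was called, against 0.536% of all genes, and their median difference was -0.19. Both cKO arrays lay below both Het arrays for 6 (24%, against 22% of all genes) and above for 3 (12%, against 18.6%). Krt15, a keratin of the bulge, gave 16.45 and 16.16 in cKO, against 16.07 and 16.33 in Het, and Lhx2, a stem cell transcription factor gene, gave 13.75 and 14.07, against 13.81 and 14.15 in Het. Sox9 gave 11.55 and 11.78 in cKO, against 12.11 and 12.14 in Het (difference -0.46, limma adjusted p = 0.498), and Nfatc1 gave 11.54 and 11.71, against 12.20 and 11.95 in Het (-0.45, adjusted p = 0.509). Tcf7l1, a repressor in the Wnt pathway, had the lowest adjusted p of the transcription factors named here, with 9.35 and 9.39 in cKO, against 10.18 and 10.52 in Het (difference -0.98, adjusted p = 0.125). Wif1, a secreted Wnt inhibitor, gave 8.70 and 9.46 in cKO, against 10.64 and 10 in Het (-1.24, adjusted p = 0.0916). Angptl7 lay the other way, with 12.46 and 13.12 in cKO, against 11.98 and 11.85 in Het (0.87, adjusted p = 0.176).

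Of 12 Wnt response genes 1 was called lower, Ccnd1, against 0.184% of all genes, and the median of the list was -0.03. In so short a list 1 call is no result about the list. None of 10 Wnt inhibitors was called, and their median was 0.07. Of 10 Hedgehog genes none was called, and the median was -0.27. Shh, a ligand needed for follicle growth, gave 6.76 and 8.41 in cKO, against 5.37 and 4.71 in Het, and HG arrays gave 9.75 to 12.49. Only the cKO bulge arrays exceeded the pooled median of 6.40, so Shh met the filter because it was high in cKO. Its difference of 2.54 is given as a description. Gli1, a target of the pathway, gave 8.43 and 7.65 in cKO, against 9.04 and 8.95 in Het (-0.95, limma adjusted p = 0.234). Ptch1, the receptor gene and also a target, gave 11.37 and 11.14 in cKO, against 11.07 and 11.13 in Het (0.15, adjusted p = 0.869). Hair germ and early anagen genes had a median of -0.01 over 11 genes, with none called.

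Cell cycle genes held no call among 38 tested, and their median difference was -0.11. It was 0.05 in set 1, where 25 genes were higher in cKO, against 5938 of 11939 over all genes. In set 2 it was -0.46, and 28 were lower, against 6240 over all genes, with 1 array on each side in either set. Mki67, the proliferation marker, gave 10.08 and 9.59 in cKO, against 9.29 and 9.33 in Het (difference 0.52, limma adjusted p = 0.474), and HG arrays gave 11.73 to 13.06. Cdc20, an activator of the anaphase-promoting complex, gave 9.48 and 9.57 in cKO, against 9.57 and 10.96 in Het (-0.74, adjusted p = 0.329). Cenpa, the centromeric histone, gave 8.33 and 8.61 in cKO, against 8.68 and 9.69 in Het (-0.71, adjusted p = 0.368). For both genes the Het array of set 2, the one called activated, was the highest. Of 11 CDK inhibitor and growth arrest genes none was called, and Foxo1 gave 11.75 and 12.13 in cKO, against 11.60 and 10.72 in Het (0.78, adjusted p = 0.266).

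Sebaceous and endothelial genes, as list means, set 1 array apart from the other 3. The 10 sebaceous genes had medians of 0.02 in set 1 and 1.01 in set 2. Pparg, a regulator of lipid synthesis, gave 8.52 and 8.73 in cKO, against 7.84 and 5.72 in Het (difference 1.85, limma adjusted p = 0.116), and Elovl6, a fatty acid elongase, gave 12.26 and 12.61, against 12.57 and 10.14 in Het. The 7 endothelial genes tested had medians of -0.18 in set 1 and 1.55 in set 2, with Cldn5, a junction protein, at 7.35 and 8.59 in cKO, against 8.43 and 4.37 in Het. By the mean of the measured members the Het array of set 2 was the lowest, at 9.73 for the sebaceous and 5.80 for the endothelial list. Single members went the other way. The sebaceous gene Krt7 (7.27 and 6.39 in cKO, against 7.93 and 7.40 in Het) was lowest on the cKO array of set 2. The endothelial genes Cdh5 and Kdr were lowest there too. Immune markers had a median of -0.31 over 15 genes, and Cd3g, of the T cell receptor complex, gave 9.09 and 7.93 in cKO, against 9.89 and 9.50 in Het (-1.18, adjusted p = 0.0982). None of the sebaceous, endothelial, immune, melanocyte, dermal papilla, muscle or Schwann cell markers was called.

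**Figure D4:**
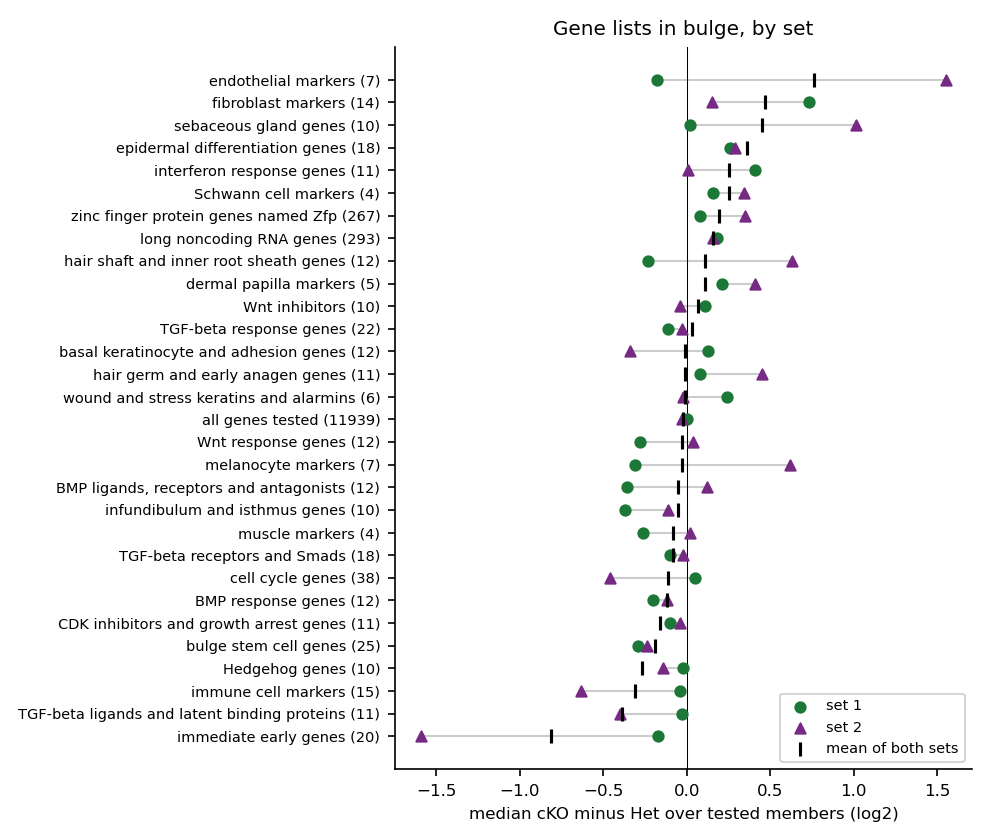
Median difference between cKO and Het bulge arrays (log2) over the tested members of each gene list, in set 1 (green circles), in set 2 (purple triangles) and for the mean of both sets (black bars), with the number of members in brackets. By the mean of both sets, immediate early genes lie lowest (-0.81) and endothelial markers highest (0.76), an order that set 1 alone (-0.17 and -0.18) does not show, and all genes tested lie at 0 and -0.03.

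Because the labels give the cells of set 2 different states in the 2 genotypes, each set was also read on its own, without a test since each side is 1 array. In set 1, 903 genes were at least 2-fold higher in cKO (7.17% of 12594) and 372 at least 2-fold lower (2.95%). In set 2, 1051 were higher (8.6% of 12226) and 783 lower (6.4%). Both sets shared 151 genes higher in cKO, which were 16.7% of those of set 1 and 14.4% of those of set 2. They shared 62 lower ones, which were 16.7% and 7.92%. Of the genes higher in set 1, 55 were at least 2-fold lower in set 2, and of those lower in set 1, 33 were at least 2-fold higher in set 2. After quantile normalization set 1 had 691 genes higher and 490 lower, a more even split.

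**Figure D5:**
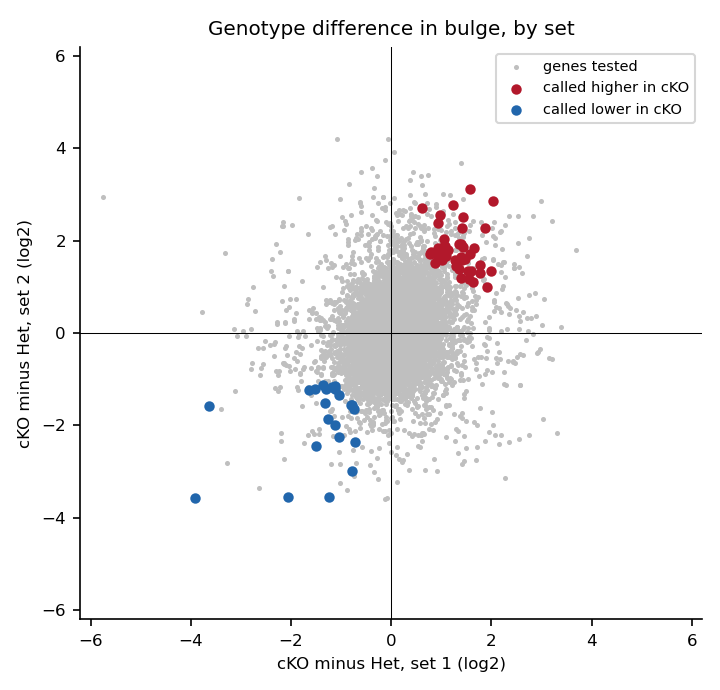
Difference between cKO and Het bulge arrays in set 1 (horizontal axis) and set 2 (vertical axis), in log2, for the 11939 genes tested (grey). Red points are the 42 genes called higher in cKO and blue points the 22 called lower; they lie away from both axes, and the differences spread wider in set 2 (SD 0.74) than in set 1 (SD 0.57).

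The genes of largest change in set 1 that set 2 did not share in the same direction included, on the low side, immune transcripts that were high on 1 Het array. H2-Ea, an MHC class II chain, gave 5.24 and 7.32 in cKO, against 11.01 and 4.37 in Het, so it was lower in cKO in set 1 and higher in set 2 (by 2.95). Dhx38 and Zfp874a also turned round, with differences of -2.16 and 1.73 in set 2. The class II genes H2-Aa, H2-Eb1 and H2-Ab1 did not follow H2-Ea in set 1, with differences of 0.66, 0.31 and -0.04. Igha and Jchain, which plasma cells use to make IgA, gave 8.59 and 8.10 on the Het array of set 1 and at most 4.89 on the other 3 arrays. On the high side Tmprss6, Dhx38, Kif9, Bcan and 1700001G11Rik were at the floor on the Het array of set 1, and their cKO values in that set lay between 7.52 and 7.75. All 5 are thus single-array contrasts at low signal. The remaining genes named in set 1 were 2610316D01Rik on the high side, and Acacb, Zfp874a and Elmo1 on the low side, each with a cKO value in set 2 of 7.2 or more.

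In set 2 the genes of largest change on the high side that set 1 did not share were low on the Het array of that set alone. Cp, the copper protein ceruloplasmin, gave 9 and 8.57 in cKO, against 9.06 and 4.37 in Het. Wfdc21, a whey acidic protein family gene, gave 9.88 and 8.80 in cKO, against 10.01 and 5.06 in Het. Adamts9, a matrix protease, gave 7.83 and 9.62 in cKO, against 8.22 and 6.05 in Het. Atp10b, Cldn5 and S1pr1, a sphingosine phosphate receptor of endothelial cells, were at the floor on the Het array of set 2. On the low side Nr1d1, a repressor of the circadian clock, gave 6.31 and 4.68 in cKO, against 6.43 and 8.27 in Het. Klhdc4 gave 7.88 and 4.40 in cKO, against 7.95 and 7.97 in Het. Fbxl15, Exosc6, Zfp385a and Srpk3 were likewise lowest on the cKO array of set 2, at 4.37 to 4.51.

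Whether the genotype difference was larger or smaller in bulge than elsewhere was tested in a fit of all 12 arrays. No gene passed for bulge against HG (0 of 12749 by limma, 790 at an unadjusted p under 0.05, smallest adjusted p 0.789). None passed for bulge against total keratinocytes either (897 at an unadjusted p under 0.05, smallest adjusted p 0.696). Zbtb16 and Gm13306 were higher in cKO HG too, by 1.74 and 2.18 on average, mostly in set 2. Neat1 differed by 0.85 and 2.61 in HG and by -0.01 and -0.40 in total keratinocytes. Nme1, by contrast, was higher in cKO in both HG sets, by 0.38 and 0.95. With none of these differences past the test, no called gene is shown to be particular to bulge.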

How the data were processed

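The series holds 12 Affymetrix arrays, and the main comparison used the 4 of bulge cells. The deposited values are MAS5 signal, an intensity on a linear scale, computed with MAS5 per the submitters' processing notes (version not given in the sources used here). Values as the authors deposited them have a mean of 500 on each array after trimming 2% at each end, as checked in the values.

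Of 45101 probe sets, 64 controls were left out. Symbols came from the platform annotation, with older ones updated by gene ID, and probe sets with several symbols or none were not used. Per gene the probe set with the highest mean over the 12 arrays was kept (18193 genes). Signals under the pooled 25th percentile (20.7) were raised to it before log2. Genes were tested if at least 2 arrays of a fit exceeded the pooled median (84.7). The test was limma 3.58.1 in R 4.3.3 on log2 of the deposited signal, with lmFit and trended eBayes. It was two-sided, and Benjamini-Hochberg adjusted p-values over all genes tested were read at 0.05. Set, which the labels number, was the block. The set differences of the genotypes correlated at 0.15 over genes. The fits were run on simulated data with noise drawn from the fitted model, which cannot check the block or the prior. Of simulated 2-fold changes, 35% were called with the 4 bulge arrays and 3% for bulge against HG. Of 4-fold changes, 88% and 59% were called. The number of arrays limits the precision.

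The members, the gene lists and the alternatives were chosen with earlier results of these data known. Named were the sort markers and other set genes, the 15 largest called genes per direction with the same sign in both sets, 6 per direction from each set alone, and up to 4 members of a list with those a count needed. Other names were chosen after their values were seen. Alternatives covered the block, other arrays in the fit, quantile normalization, floor, filter, probe set choice, trend, a 2-fold minimum and each array left out. The gene groups by biotype and by name were formed after the values were seen.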

Additional observations from a re-analysis of the deposited data

Results flagged for a closer look

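For 11 of the 30 named called genes both sets of bulge differed 1 way and both sets of another fraction the other way. The share of all genes that do so was not counted, so this count is no result about the named genes. Some of the values lay near 0, as for Neat1 in total keratinocytes of set 1 (-0.01). In total keratinocytes the mean difference between cKO and Het was -0.20 for Neat1, -1 for Mir205hg, -0.61 for Zfp950 and -0.55 for Ttc14, all of which rose in cKO bulge. It was 0.86 for Tnfrsf12a, 0.26 for Agap3 and 0.25 for Ppp1r37, which fell in cKO bulge. In the fit of all 12 arrays none of these 7 differences between fractions passed (limma, adjusted p = 0.696 for each).

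In HG cells the mean difference was -0.75 for Hoxd3os1, which rose in cKO bulge. It was 0.66 for Nme1, 0.34 for Bag3 and 0.49 for Slc25a29, which fell in cKO bulge. None of these 4 passed the test of the difference between fractions (limma, adjusted p = 0.789 for each).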

How the results depend on the processing

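The count of 64 genes called did not hold under most alternatives. With no replicate block, so with the pairing by set left out, it was 0 (smallest adjusted p 0.33), and it was 0 with all 12 arrays, with the 8 HG and bulge arrays, with no filter, with probe sets of a gene averaged and with eBayes without trend. It was 212 after quantile normalization (142 higher and 70 lower, all 64 among them), 209 with the filter at the pooled 75th percentile and 26 with the floor at the pooled median. With 1 array left out, in the fit without the block, it lay between 0 and 74, with 74 without the Het array of set 1 and 0 without either cKO array or without the Het array of set 2. The cause was not tested. Each of the 30 named called genes kept its direction under every alternative that tested it, but this was largely fixed in advance. Changes of block, filter, trend or added fractions leave the difference itself unchanged. The genes were named for the same sign in both sets, and their groups are apart, so leaving out 1 array cannot reverse them. The counts of genes at least 2-fold different were 1275 in set 1 and 1834 in set 2, and became 498 and 1153 with the floor at the pooled median, and 150 and 663 where the higher array had to exceed the pooled 75th percentile. The 0 calls for bulge against HG and against total keratinocytes stayed 0 under all alternatives run. Signals near the floor limit genes such as Epn3 and Rrp9.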

Other observations

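Long noncoding RNA genes and zinc finger genes named Zfp were looked at as groups after the list of called genes was seen, so their counts carry no test. Of 293 noncoding RNA genes tested, 9 were called higher in cKO bulge (3.07%, against 0.352% of all genes) and 0 lower, and both cKO arrays lay above both Het arrays for 96 (32.8%, against 18.6% of all genes). Their median difference was 0.16. Malat1, a nuclear noncoding RNA, gave 11.98 and 14.16 in cKO, against 11.51 and 12.40 in Het (difference 1.11, limma adjusted p = 0.124). Of 267 Zfp genes, 7 were called higher (2.62%, against 0.352% of all genes) and 0 lower, and cKO lay above Het for 101 (37.8%, against 18.6%), with a median of 0.19. The median of the Zfp genes was 0.08 without the Het array of set 2.

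Keratins of the inner root sheath of a growing hair were higher in set 2 of both genotypes. Krt25 gave 4.37 and 10.38 in cKO, against 4.71 and 8.32 in Het, and Krt28 gave 5.46 and 9.35 in cKO, against 5.59 and 8.13 in Het. Of 11 interferon response genes none was called, and both cKO arrays lay above both Het arrays for 4 (36.4%, against 18.6% of all genes). Rsad2, an antiviral gene, gave 8.46 and 7.60 in cKO, against 7.08 and 5.77 in Het (difference 1.60, adjusted p = 0.169). Epidermal differentiation genes had a median of 0.36 over 18 genes with none called, and loricrin (Lor) gave 10.57 and 8.66 in cKO, against 10.59 and 6.55 in Het.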
